A study of Homo sapiens with 2 samples.

Results

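The 7 genes described here belong to the making of heme and to the red cell surface: *ALAS2*, *UROD*, *FECH*, *SLC25A37*, *TFRC*, *GYPB* and *HEMGN*. They were picked by symbol from 32738 genes measured by droplet-based single-cell RNA sequencing. The measured cells were nonadherent cells harvested on day 5 of the endothelial-to-hematopoietic transition (EHT), in which CD34+ cells made from the induced pluripotent stem cell line IPS11 turn into blood progenitors in culture. The wells were left uncoated or were coated with the notch ligand DLL4, with the adhesion protein VCAM1, or with both, and 3 wells of each of the 4 coatings were combined, tagged with 1 of 4 hashtag antibodies (0252, 0253, 0254 and 0255) and captured together as 1 library. No source used here ties a hashtag to its coating, so hashtags are given by number only, and there are no replicates and no p-values.

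A cell was kept if it was called for a single hashtag and had at most 36000 unique molecular identifiers (UMIs), 6000 genes and 18% mitochondrial UMIs, which left 7550 of 10836 barcodes. Cells were then placed along the number of UMIs of the globin genes *HBG1*, *HBG2* and *HBE1* that each held. Of the kept cells, 5241 had 0 globin UMIs, 2032 had 1 to 19, 116 had 20 to 99 and 161 had 100 or more. The median depth per cell in these bins was 17748, 19610.5, 19757.5 and 20448 UMIs. A level is the number of UMIs of a gene per 1000000 gene UMIs (CPM) of the cells summed, with a 95% Poisson interval, and both it and the ratio intervals cover counting error only. Because only the 3′ ends of transcripts were counted, levels of 1 gene are compared between cells, and levels of different genes are not compared.

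Heme is built by a chain of enzymes that begins and ends in the mitochondrion. ALAS2, the red cell form of aminolevulinate synthase, makes the first and rate-limiting step, UROD works in the cytosol in the middle of the chain, and FECH places iron into the finished ring. The iron comes in through TFRC, the transferrin receptor, and crosses the inner mitochondrial membrane through SLC25A37 (mitoferrin). GYPB is glycophorin B, a sialoglycoprotein of the red cell surface. HEMGN (hemogen) is a nuclear protein of blood-forming cells, so the set also holds a gene that acts in neither heme synthesis nor the membrane. GATA1 and KLF1 are the transcription factors best known for switching on red cell genes, and GATA1 also drives the platelet lineage.

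The sequences in front of 3 of these genes are shown because the genes with the largest ratios between globin-high and globin-negative cells (*ALAS2*, *HEMGN* and *GYPB*) had a GATA motif in the 250 bases before a start, and *UROD*, *TFRC* and *FECH* had none. *SLC25A37* was not searched. Capitals mark the motif (AGATAA or TGATAA, or either of them with G as the last base, searched on both strands). Sequences are RefSeq's, listed on GRCh38.p14, and each was placed by its single exact match in GRCh37 (hg19), the build of the counts. All 3 are written 5′ to 3′ on the minus strand, which is the strand of the genes.
*ALAS2*, chrX:55057411-55057660: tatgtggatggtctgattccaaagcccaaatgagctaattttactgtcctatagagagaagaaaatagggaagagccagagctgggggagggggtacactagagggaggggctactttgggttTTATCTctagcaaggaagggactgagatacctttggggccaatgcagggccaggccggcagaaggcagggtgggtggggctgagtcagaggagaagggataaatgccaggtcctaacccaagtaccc
*GYPB*, chr4:144940534-144940783: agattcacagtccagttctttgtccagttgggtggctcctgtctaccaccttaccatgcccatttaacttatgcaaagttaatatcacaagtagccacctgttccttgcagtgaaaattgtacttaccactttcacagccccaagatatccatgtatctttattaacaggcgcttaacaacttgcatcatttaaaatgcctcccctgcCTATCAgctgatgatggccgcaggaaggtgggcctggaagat
*HEMGN*, chr9:100700455-100700704: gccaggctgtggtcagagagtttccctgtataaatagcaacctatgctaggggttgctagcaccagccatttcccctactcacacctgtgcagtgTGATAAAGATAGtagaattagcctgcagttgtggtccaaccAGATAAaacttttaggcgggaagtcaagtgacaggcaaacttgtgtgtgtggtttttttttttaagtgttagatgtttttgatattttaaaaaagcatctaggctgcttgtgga
The *ALAS2* window held 1 GATA motif, 127 bases before the start and on the opposite strand. The *GYPB* window held 1, 42 bases before the start and also on the opposite strand. The *HEMGN* window, before the second start listed for the gene and 6684 bases inside the gene, held 3, at 155, 149 and 114 bases before that start. The windows of the first *HEMGN* start and of the second *GYPB* start held 2 each. Over all 35116 windows of this length, 22.3% held at least 1 such motif, 4.96% at least 2 and 0.94% at least 3. The motif CACCC, which KLF1 is known to read, was found 2 times in the *ALAS2* window and 1 time in that of *GYPB*, and 54.7% of all windows held it. The windows also differed in make-up. Those of *TFRC* and *FECH* were 74.4% and 72.4% G and C, and those with a GATA motif 37.2 to 52.8%. The *UROD* window lay 1304 bases inside the gene. *GYPB* and *HEMGN* had 2 windows searched each, while the background shares are per window. These matches describe letters and are not shown to be bound.

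In hg19, *ALAS2* (ENSG00000158578) lies on chromosome X from 55035488 to 55057410, *UROD* (ENSG00000126088) on chromosome 1 from 45476622 to 45481247 and *FECH* (ENSG00000066926) on chromosome 18 from 55211609 to 55253964. The iron genes *SLC25A37* (ENSG00000147454) and *TFRC* (ENSG00000072274) lie on chromosome 8 from 23386469 to 23432976 and on chromosome 3 from 195739382 to 195809024. *GYPB* (ENSG00000250361) lies on chromosome 4 from 144917257 to 144940533, near its close relative *GYPE*, and *HEMGN* (ENSG00000136929) on chromosome 9 from 100689073 to 100707138. Of the 721 stretches of 90 bases in the last 500 bases of *GYPB* transcripts, 0 also occurred in *GYPE*. No such stretch was shared between *ALAS2* and *ALAS1* or between *SLC25A37* and *SLC25A28*.

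All 7 genes were higher in cells with 100 or more globin UMIs than in cells with 0. *ALAS2* had the minimum of 100 UMIs only through the globin-high cells, since 83 of its 322 UMIs lay elsewhere, so it is left out of the counts that follow. Of the other 6, a ratio of at least 4 was reached by 3 (*HEMGN*, *GYPB* and *SLC25A37*), against 2.02% of the 13486 genes with at least 100 UMIs in all, and a ratio of at least 2 by 6, against 6.01%. Without the cells of hashtag 0254, *FECH* and *TFRC* were at 1.76 and 1.80, and without the limits on UMIs and genes at 1.79 and 1.81, so 4 of 6 passed 2 in either case. None was lower, while 16.1% of all genes were at most 1/2 and 6.54% at most 1/4. At 20 to 99 globin UMIs, 2 of these 6 (*HEMGN* and *GYPB*) were at least 4 times the level of cells with 0, against 2.07%, and with *UROD* and *SLC25A37* 4 of 6 at least 2 times, against 6.05%, while 17.0% of all genes were at most 1/2 and 7.91% at most 1/4. At 1 to 19, *HEMGN* alone of the 6 passed either ratio, at 4.36 (3.67 to 5.19), against 0.719% of genes at 2 and 0.0816% at 4, and *GYPB* came next with 1.99 (1.91 to 2.08). The cells with more globin also held more of 4 platelet genes (*PF4*, *PPBP*, *GP9* and *ITGA2B*). All 4 were higher at 100 or more globin UMIs than at 0, and their summed level was 72.9 CPM at 0 globin UMIs, 137 CPM at 1 to 19, 1081 CPM at 20 to 99 and 2137 CPM at 100 or more. Values are therefore also given for cells split by these genes.

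*ALAS2* had the largest ratio of the 7. Its level was 0.335 CPM (0.229 to 0.473) in cells with 0 globin UMIs, 0.636 CPM (0.416 to 0.932) at 1 to 19, 10.9 CPM (7.06 to 16.1) at 20 to 99 and 69.0 CPM (60.5 to 78.3) at 100 or more. This is 206 times higher (142 to 308) in the highest bin than in the lowest and 6.33 times higher than at 20 to 99. The ratio of the highest to the lowest bin was 45.3 with a mitochondrial limit of 10%, which left 5 cells in the highest bin, and 322 with cells thinned to equal depth. Of all its UMIs, 74.2% came from the 161 cells of the highest bin, where 36.6% of cells held at least 1 and the highest cell held 15. In cells without globin the share was 0.611%, no higher than the 0.904% among 774 cells with fewer than 20 globin UMIs picked by azurophil granule genes (*MPO*, *ELANE*, *AZU1*, *PRTN3*), which should lack the gene. The median depths of these groups were 17748 and 18419 UMIs. The source of the *ALAS2* UMIs in cells without globin was not tested. With every cell thinned to 5000 UMIs the shares were 0.116% and 21.1%.

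The level of *ALAS2* did not climb evenly. In narrower bins, chosen after the values were seen, it was 0.336 CPM in 1926 cells with 1 to 4 globin UMIs and 6.12 CPM in 106 cells with 5 to 19. It was then 9.29 CPM at 20 to 49, 12.6 CPM at 50 to 99 and 9.65 CPM at 100 to 299, followed by 116 CPM in 50 cells with 300 to 999 and 222 CPM in 18 cells with 1000 or more. Large steps thus lay between 1 to 4 and 5 to 19 globin UMIs and between 100 to 299 and 300 to 999. Cells with 1 to 4 globin UMIs had the level of cells with 0.

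*UROD* was read in most cells. Its level was 125 CPM (123 to 127), 144 CPM (140 to 148), 386 CPM (361 to 413) and 459 CPM (437 to 483) along the 4 bins. The ratio of the highest to the lowest bin was 3.67 (3.48 to 3.87), and most of it was reached at 20 to 99 globin UMIs, with 3.09 there. The share of cells with a UMI was 81.1% at 0 globin UMIs and 99.4% at 100 or more, or 43.0% and 90.7% after thinning.

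*FECH* had the smallest ratio. Its level was 15.4 CPM (14.6 to 16.2), 16.7 CPM (15.4 to 17.97), 19.2 CPM (13.9 to 25.8) and 34.6 CPM (28.7 to 41.4), a ratio of 2.26 (1.86 to 2.72) between the ends. At 20 to 99 globin UMIs the ratio to cells with 0 was 1.25 (0.904 to 1.69). *ALAS2*, *UROD* and *FECH* were thus all highest at the globin-rich end. At 20 to 99 the ratio to cells with 0 was already 32.5 for *ALAS2* and 3.09 for *UROD*. These bins mix cells with and without platelet genes, which are split below. A UMI of *FECH* was present in 23.6% of cells without globin and 42.9% of those with 100 or more.

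The iron genes lay between these. *SLC25A37* was at 40.6 CPM (39.4 to 41.9), 48.4 CPM (46.3 to 50.6), 113 CPM (100.0 to 128) and 197 CPM (183 to 213) along the bins, 4.86 times higher (4.47 to 5.27) at the top than at the bottom. *TFRC* was at 68.7 CPM (67.0 to 70.4), 70.1 CPM (67.6 to 72.7), 90.7 CPM (78.8 to 104) and 162 CPM (149 to 176), a ratio of 2.35 (2.16 to 2.57). *SLC25A37* was higher at each step, mostly from 20 globin UMIs on, and *TFRC* mostly from 100 on, its first step lying within counting error. The share of cells with *TFRC* went from 58.6% to 69.6% only, and from 25.6% to 31.1% after thinning, and its 90th percentile was 11 UMIs per cell with 100 or more globin UMIs against 3 in cells without globin. The higher level of *TFRC* thus came from a part of the globin-high cells.

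*GYPB* and *HEMGN* were already near their highest level at 20 to 99 globin UMIs, in bins that mix cells with and without platelet genes. *GYPB* was at 48.2 CPM (46.8 to 49.6) at 0 globin UMIs, 96.1 CPM (93.1 to 99.1) at 1 to 19, 509 CPM (481 to 540) at 20 to 99 and 572 CPM (547 to 597) at 100 or more. Its ratio to cells without globin was 10.6 at 20 to 99 and 11.9 (11.2 to 12.5) at 100 or more, and it was present in 94.0% and 91.3% of those cells against 17.1% of cells without globin. *HEMGN* was at 2.15 CPM (1.86 to 2.46), 9.35 CPM (8.44 to 10.3), 94.2 CPM (82.1 to 107.7) and 105 CPM (94.6 to 116). Its ratio was 43.9 at 20 to 99 and 49.0 (41.1 to 58.4) at 100 or more, and that between these upper bins was 1.12 (0.940 to 1.33), within counting error of no difference.

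**Figure D1:**
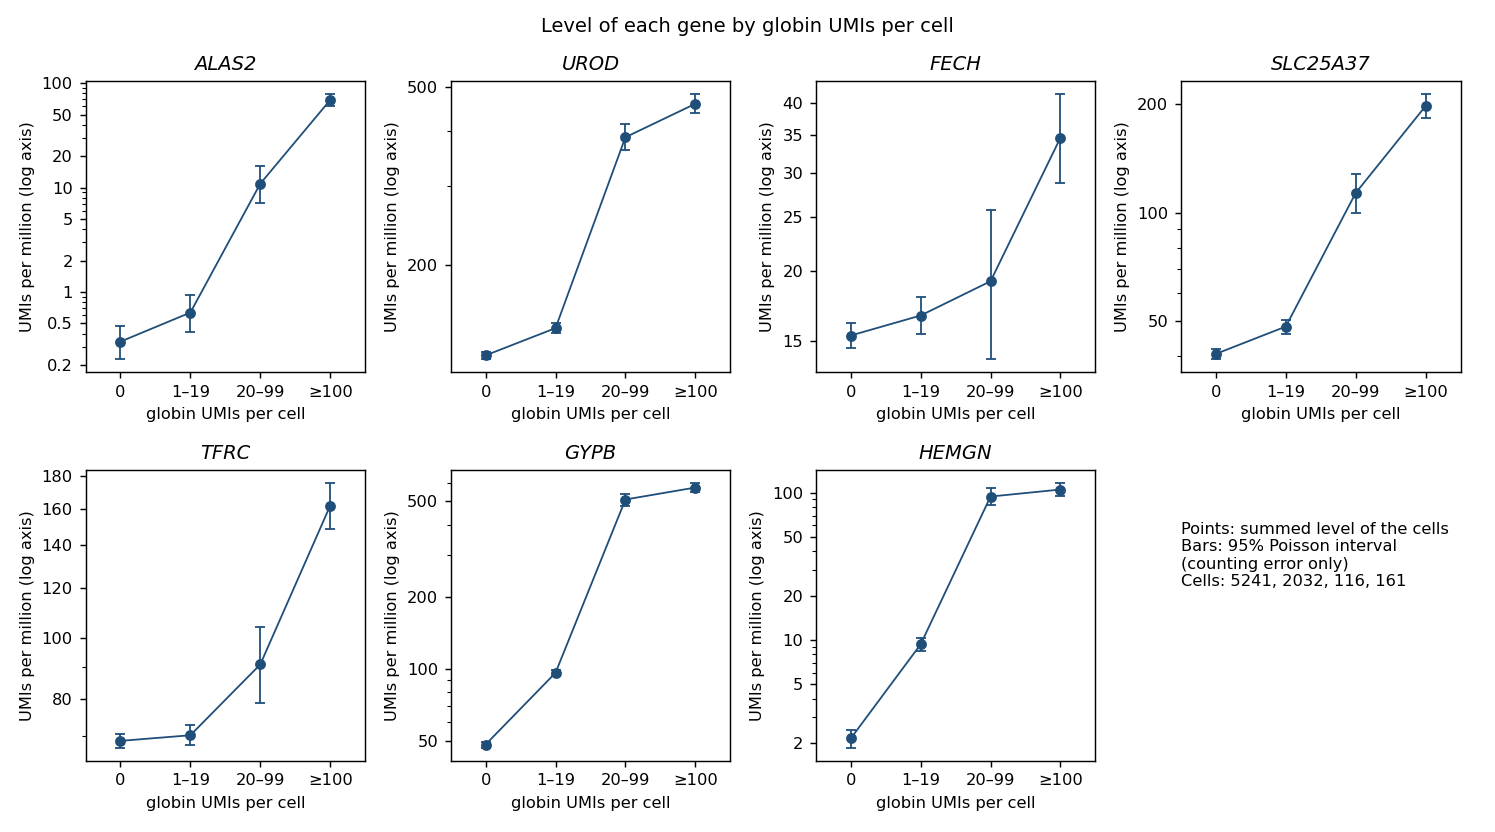
Level of each gene in UMIs per 1000000 UMIs (log axis, a scale of its own for each gene) in cells with 0, 1 to 19, 20 to 99 and 100 or more globin UMIs, with bars for the 95% Poisson interval. At the last step *GYPB* goes from 509 to 572 CPM and *HEMGN* from 94.2 to 105 CPM, while *ALAS2* goes from 10.9 to 69.0 CPM and *TFRC* from 90.7 to 162 CPM.

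Few cells held all 7 transcripts. The median number of the 7 genes with a UMI was 2 in cells without globin, 3 at 1 to 19 globin UMIs and 5 in both upper bins. All 7 were present in 8 of 161 cells with 100 or more globin UMIs and in 0 cells with fewer. After thinning, the mean number was 1.05, 1.26, 2.95 and 3.23 along the bins. Across the 7550 cells, which share 1 library and its free RNA, the correlation of log levels was 0.36 between *GYPB* and *HEMGN*, 0.03 between *ALAS2* and *HEMGN* and -0.01 between *TFRC* and *HEMGN*. Values near 0 between genes this sparse are no finding.

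Globin-bearing cells were of unlike kinds. Of the 277 cells with 20 or more globin UMIs, 110 had at least 20 UMIs of the 4 platelet genes and 167 had fewer, a split made after the values were seen. Their median depth was 20716.5 and 19858 UMIs. The cells below the gate were not free of these genes, with *PF4* at 0 UMIs, *PPBP* at 24.4 CPM, *GP9* at 142 CPM and *ITGA2B* at 232 CPM, against 33.5, 2579, 466 and 539 CPM above it. Scrublet, which looks for droplets that hold more than 1 cell, marked 0 cells of either kind. It marked only 0.834% of all kept cells, so 0 in groups of this size cannot show that they hold no such droplets. The groups are called cells with and without platelet genes, by the gate only. Those without still had the 4 genes, summed, at 399 CPM, against 72.9 CPM in cells with 0 globin UMIs.

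The 7 genes differed between these kinds of cells in both directions. The kinds also differed in their mix of hashtags. Hashtags 0252, 0253, 0254 and 0255 held 44, 47, 12 and 7 of the cells with platelet genes. Of those without, they held 50, 49, 44 and 24. The part of hashtag in the ratios below was not tested. In cells without over cells with platelet genes the ratio was at least 2 for *ALAS2*, *TFRC*, *FECH* and *GYPB* and at most 1/2 for *HEMGN*. *ALAS2* and *FECH*, with 31 and 36 UMIs in the cells with platelet genes, had 100 UMIs only through the cells where they were high. Of the other 5, 2 were thus at least 2, against 3.03% of 5605 genes, and 1 at most 1/2, against 4.3%. The 4 mast and basophil genes of the marker list, summed, were at 196 CPM without and 35.2 CPM with platelet genes, nearly all of it *HDC*, and at 58.1 CPM in cells with 0 and 149 CPM in cells with 100 or more globin UMIs. Of the cells without platelet genes, 1 of 167 passed the gate for those genes, and their part in the difference was not tested. *ALAS2* was at 68.5 CPM without and 13.2 CPM with platelet genes, a ratio of 5.21 (3.57 to 7.84). Of the 31 UMIs of *ALAS2* in cells with platelet genes, 15 were in 1 cell. *TFRC* was at 192 and 49.2 CPM, a ratio of 3.89 (3.19 to 4.79), and *FECH* at 37.6 and 15.3 CPM, a ratio of 2.46 (1.69 to 3.67). In the cells with platelet genes, *FECH* was at 0.996 times (0.694 to 1.38) and *TFRC* at 0.717 times (0.592 to 0.861) the level of cells without globin, so neither was higher there.

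*SLC25A37* and *GYPB* were higher without platelet genes too, but both were also well above the globin-negative level with them. *SLC25A37* was at 188 CPM without and 129 CPM with platelet genes, a ratio of 1.45 (1.26 to 1.67), and *GYPB* at 693 and 335 CPM, a ratio of 2.07 (1.91 to 2.24). *UROD* did not differ beyond counting error, with 427 and 435 CPM and a ratio of 0.983 (0.907 to 1.07). *HEMGN* was the reverse, with 51.5 CPM without and 172 CPM with platelet genes, a ratio of 0.299 (0.249 to 0.358). In 56 cells with platelet genes and fewer than 20 globin UMIs, *HEMGN* was at 142 CPM, *GYPB* at 333 CPM and *UROD* at 372 CPM, while 0 UMIs of *ALAS2* were found, which allows up to 2.38 CPM. With such cells left out of all bins, the ratio of 100 or more to 0 globin UMIs was 333 for *ALAS2*, 3.77 for *TFRC*, 3.40 for *FECH* and 17.6 for *HEMGN*.

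Within the cells without platelet genes, the genes of heme and iron were higher and *HEMGN* was lower with more globin. Narrower bins of 20 to 49, 50 to 99, 100 to 299, 300 to 999 and 1000 or more globin UMIs held 42, 38, 38, 35 and 14 such cells. The mix of hashtags changed along them. Hashtags 0252, 0253, 0254 and 0255 held 43, 38, 21 and 16 of these cells at 20 to 299 globin UMIs. At 300 or more they held 7, 11, 23 and 8. Values along these bins therefore mix globin with hashtag, and the part of each was not tested. *ALAS2* was at 11.3, 19.3, 18.5, 140 and 274 CPM along them, and the share of cells with a UMI was 16.7, 21.1, 21.1, 77.1 and 100%. *FECH* was at 13.8, 26.2, 29.7, 59.0 and 91.4 CPM. The ratio between the outer bins was 24.3 (12.3 to 54.8) for *ALAS2* and 6.63 (3.24 to 14.6) for *FECH*, the latter from 42 UMIs. *FECH*, with the smallest ratio over all cells, was thus higher with more globin in these cells, where the mix of hashtags changed as well.

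*TFRC* in these cells was at 113, 104, 129, 310 and 463 CPM, a ratio of 4.10 (3.15 to 5.38) between the outer bins. *SLC25A37* was at 104, 146, 157, 307 and 292 CPM, a ratio of 2.81 (2.08 to 3.80), and *UROD* at 326, 446, 441, 433 and 581 CPM, a ratio of 1.78 (1.47 to 2.15). *ALAS2*, *TFRC* and *SLC25A37* shared their step between 100 to 299 and 300 to 999 globin UMIs, where the ratios were 7.55 (4.37 to 14.0), 2.41 (1.90 to 3.07) and 1.96 (1.57 to 2.45). *FECH*, by the levels given above, was also higher at 300 to 999 than at 100 to 299. *UROD* had no step there, with 0.982 (0.842 to 1.15). *FECH* and *HEMGN* had under 100 UMIs in the outer bins together, and *ALAS2* had 102 only through the 93 of the highest bin. *TFRC* and *SLC25A37*, with 247 and 182 UMIs in the outer bins together, also had 100 only through the highest bin, so they are not counted either. Neither *UROD* nor *GYPB* was at least 2 times higher at 1000 or more than at 20 to 49, against 1.32% of 1596 genes. Neither was at most 1/2, against 7.77%.

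*GYPB* was nearly level in the same cells, with 620, 617, 688, 865 and 672 CPM and a ratio of 1.08 (0.922 to 1.27) between the outer bins. *HEMGN* was at 71.4, 78.7, 59.3, 16.5 and 2.95 CPM, and its share of cells at 45.2, 60.5, 52.6, 22.9 and 7.14%. The last value is a single UMI in 14 cells, and the ratio between the outer bins was 0.0413 (0.00103 to 0.239). In the cells with platelet genes *HEMGN* was at 114, 151, 214, 152 and 51.1 CPM over the same bins, the last of them holding 4 cells. *GATA1* was at 307, 311, 290, 254 and 198 CPM and *KLF1* at 78.9, 78.7, 103, 248 and 383 CPM in the cells without platelet genes. *HEMGN* and *GATA1* were thus lowest, and *KLF1* highest, where *ALAS2* and globin were highest.

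The embryonic globin *HBZ*, which was no part of the binning, was at 183, 276, 714, 7823 and 18031 CPM in these cells. *HBZ* thus made its step where *ALAS2*, *TFRC* and *SLC25A37* made theirs, and where *FECH* was also higher. Globin UMIs are part of each total, and leaving them out of the totals moved none of the 7 ratios over all cells by more than 1.5 times.

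**Figure D2:**
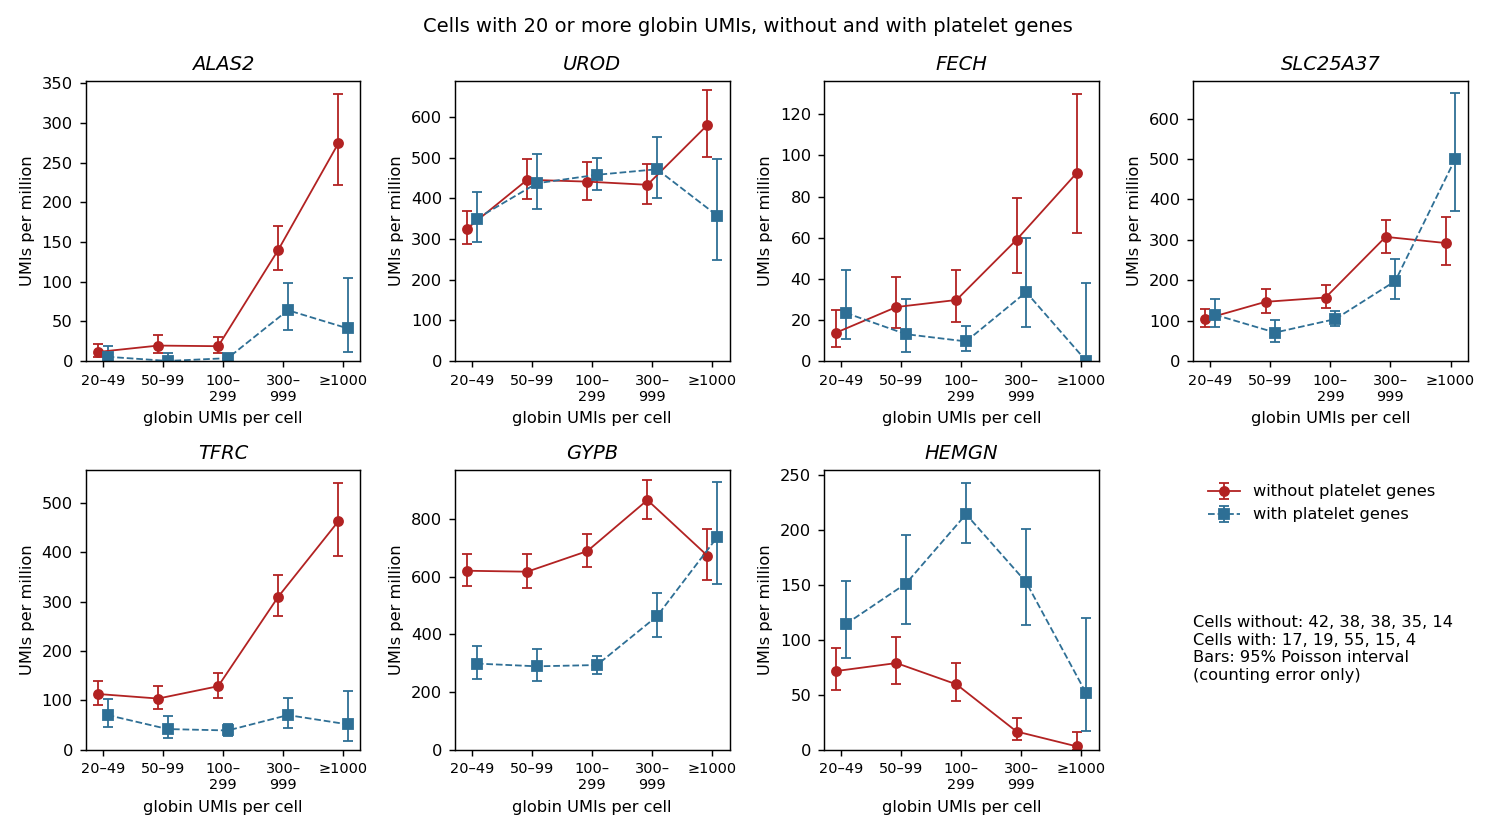
Level of each gene in UMIs per 1000000 UMIs against globin UMIs per cell, for cells with 20 or more globin UMIs without (circles, solid line) and with (squares, dashed line) platelet genes; bars are 95% Poisson intervals. *ALAS2*, *FECH* and *TFRC* climb in the cells without platelet genes, *UROD* is alike in both, and *HEMGN* peaks at 214 CPM in cells with platelet genes and drops to 2.95 CPM in the globin-richest cells without them.

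*GYPB* was also present in cells without globin. Among the 5241 cells with 0 globin UMIs, 161 held 10 or more UMIs of *GYPB*, 737 held 1 to 9 and 4343 held 0, a split chosen after the values were seen. Cells with 10 or more were compared with cells with 0. *HEMGN* had 128 UMIs in both groups, 87 of them in the *GYPB*-high cells, and so had 100 only through these. Of the other 4 genes that could be counted, 1 (*UROD*) was at least 2 times higher, against 4.34% of 12487 genes, and 0 were at most 1/2, against 12.0%. *HEMGN* was at 26.2 CPM against 0.525 CPM, a ratio of 49.9 (34.1 to 74.2), and *UROD* at 253 against 114 CPM, a ratio of 2.22 (2.07 to 2.38). *SLC25A37* was at 67.5 against 38.6 CPM, *FECH* at 23.2 against 14.7 CPM and *TFRC* at 84.3 against 65.7 CPM, ratios of 1.75, 1.58 and 1.28. *ALAS2* had 4 UMIs in the 161 cells, or 1.20 CPM against 0.282 CPM, a ratio of 4.28 (1.07 to 12.6).

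These globin-negative, *GYPB*-high cells had *GATA1* at 218 CPM against 25.1 CPM and *KLF1* at 49.7 against 4.67 CPM. Their summed platelet genes were at 356 against 43.5 CPM, with 3 of the 4 genes higher and *PF4* at 0 UMIs, and 4 of the 161 cells passed the platelet gate. *GYPB* itself, by which they were chosen, was at 762 CPM in them. Against the same *GYPB*-high cells, the globin-bearing cells without platelet genes had 56.9 times the *ALAS2*, 2.79 times the *SLC25A37*, 2.27 times the *TFRC*, 1.96 times the *HEMGN*, 1.69 times the *UROD* and 1.62 times the *FECH*. Cells of 1 day were ordered here by globin and *GYPB*, and no order in time was measured.

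**Figure D3:**
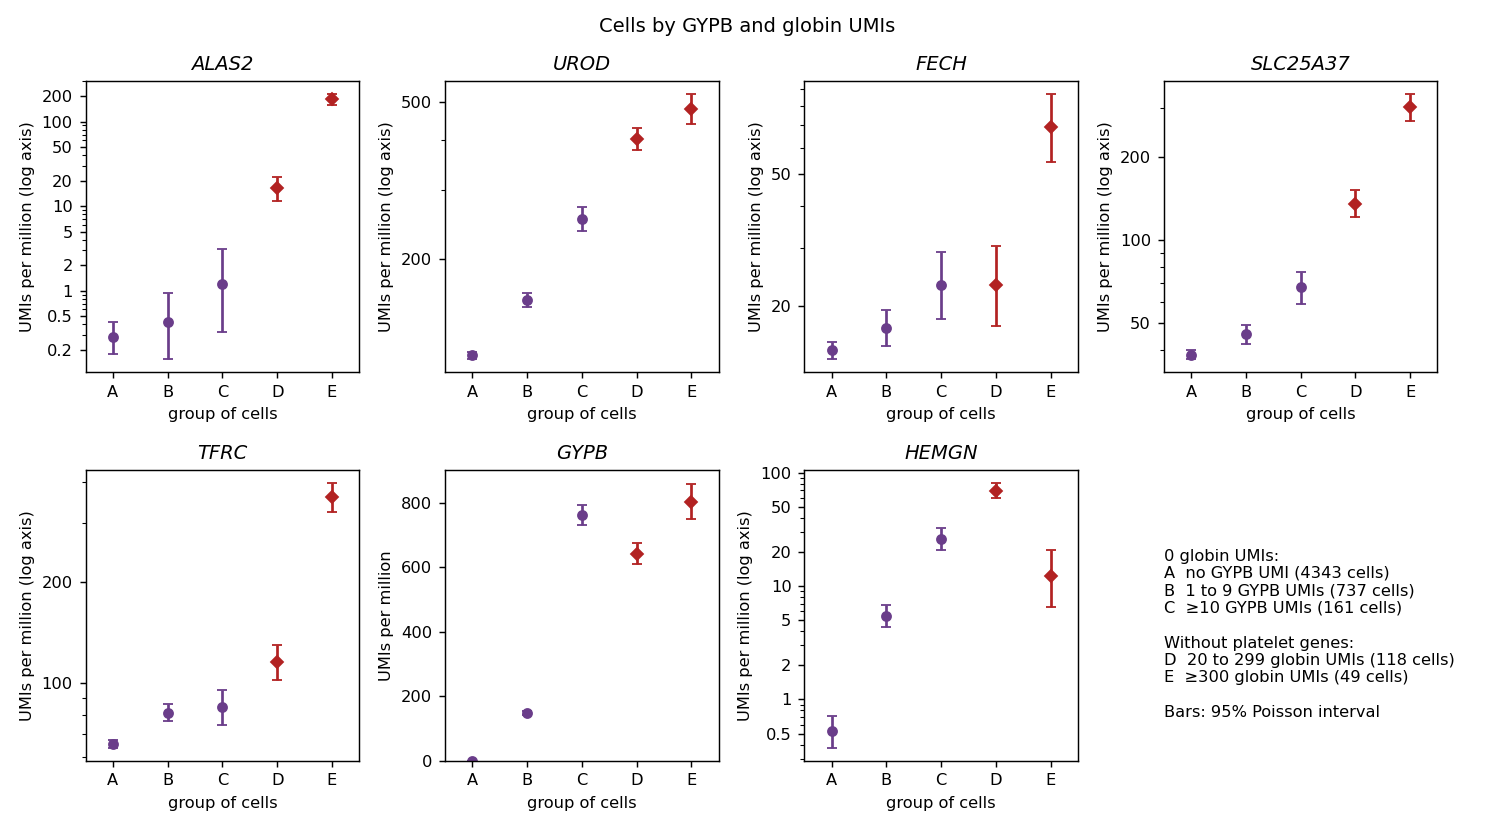
Level of each gene in UMIs per 1000000 UMIs (log axis, except *GYPB* on a linear axis) in cells with 0 globin UMIs and 0 (A), 1 to 9 (B) or 10 or more (C) *GYPB* UMIs, and in cells without platelet genes with 20 to 299 (D) or 300 or more (E) globin UMIs; bars are 95% Poisson intervals, and *GYPB* itself sets groups A to C. *HEMGN* goes from 0.525 CPM in A to 26.2 CPM in C and is at 12.2 CPM in E, while *ALAS2* is at 1.20 CPM in C, 16.3 CPM in D and 183 CPM in E.

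The 4 hashtags differed most in *ALAS2*, *HEMGN* and *GYPB*. A ratio of at least 1.5 between the highest and lowest hashtag was found for these 3 of 7, against 17.0% of 13486 genes, and the same 3 passed 2, against 6.69%. *ALAS2* was at 0.544 CPM in 0252, 2.00 in 0253, 4.90 in 0254 and 1.86 in 0255, a ratio of 9.00 (5.75 to 14.7). *GYPB* was at 115, 90.1, 72.0 and 37.8 CPM in the same order, a ratio of 3.04 (2.84 to 3.25), and *HEMGN* at 13.5, 11.2, 3.63 and 2.31 CPM, a ratio of 5.82 (4.50 to 7.63). The *HEMGN* ratio was 10.6 without cells with platelet genes and 19.4 with a mitochondrial limit of 10%. *ALAS2* was thus highest in 0254 and lowest in 0252, while *GYPB* and *HEMGN* were highest in 0252 and lowest in 0255.

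The other 4 genes differed little between hashtags. *UROD* was at 154, 148, 138 and 127 CPM and *SLC25A37* at 54.4, 50.4, 44.1 and 39.7 CPM, with ratios of 1.22 (1.17 to 1.27) and 1.37 (1.28 to 1.47), in the order of *GYPB*. *TFRC* was at 67.1, 72.0, 75.8 and 72.9 CPM, a ratio of 1.13 (1.07 to 1.19). *FECH* was at 16.6, 16.4, 16.7 and 15.1 CPM, and its ratio of 1.11 (0.977 to 1.26) was within counting error. A hashtag holds the pooled wells of 1 coating, so the spread between wells, which these intervals leave out, is not known.

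The make-up of the hashtags differed as well. Cells with 20 or more globin UMIs numbered 94 of 2136 in 0252, 96 of 1996 in 0253, 56 of 1847 in 0254 and 31 of 1571 in 0255. Of these, 44, 47, 12 and 7 had platelet genes. The summed platelet genes were at 216, 203, 103 and 81.2 CPM over all cells of each hashtag, the same order as *HEMGN* and *GYPB*. Azurophil granule genes were at 3344, 3473, 980.0 and 899 CPM, with 15.3, 15.8, 4.49 and 3.25% of cells past their gate, and collagen genes at 22.2, 23.2, 35.5 and 84.0 CPM. The part of these cells in the hashtag differences was not tested. With every hashtag given the same make-up of the 4 globin bins, the ratio was 9.45 for *ALAS2*, 3.77 for *HEMGN* and 2.24 for *GYPB*, in place of 9.00, 5.82 and 3.04. This did not make globin equal within a bin. At 100 or more, the median globin UMIs were 212 in 0252, 208.5 in 0253, 461 in 0254 and 415 in 0255. In cells without globin, *GYPB* was at 73.5, 53.8, 39.7 and 18.3 CPM, a ratio of 4.01 (3.59 to 4.50).

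Within the cells with 100 or more globin UMIs, more of all genes were apart between hashtags than over all cells. A ratio of 1.5 was passed by 47.9% of 3965 genes there and by 17.0% of 13486 over all cells. The iron genes *TFRC* and *SLC25A37* passed it there and not over all cells. *FECH* had its 120 UMIs only through the 51 of 0254. Of the other 6, a ratio of at least 1.5 was found for 4 (*ALAS2*, *HEMGN*, *TFRC* and *SLC25A37*), against 47.9% of 3965 genes, and of at least 2 for 3, against 17.5%. The highest to lowest ratio was 16.8 (8.88 to 35.9) for *ALAS2*, 3.34 (2.38 to 4.78) for *HEMGN*, 3.29 (2.44 to 4.43) for *TFRC* and 2.37 (1.45 to 3.97) for *FECH*. More of all genes passed there too, where fewer UMIs lie behind each value.

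Among cells without platelet genes and with 20 or more globin UMIs (50, 49, 44 and 24 cells), *ALAS2* was at 6.89, 60.3, 135 and 81.3 CPM in 0252, 0253, 0254 and 0255. The ratio of 0254 to 0252 was 19.5 (9.22 to 49.6), resting on 130 and 7 UMIs. *TFRC* was at 112, 148, 288 and 250 CPM, a ratio of 2.57 (2.06 to 3.22), and *HEMGN* at 70.9, 79.7, 22.8 and 14.2 CPM, a ratio of 5.60 (2.59 to 14.4). *GYPB*, at 760, 552, 768 and 677 CPM, no longer followed its order over all cells. The median globin UMIs of these cells were 70.5, 115, 344.5 and 69, so the hashtags also differed in how much globin such cells held.

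The low *ALAS2* of 0252 was seen at both low and high globin. In cells without platelet genes with 20 to 299 globin UMIs (43, 38, 21 and 16 cells), a split chosen after the values were seen, *ALAS2* was at 4.63, 16.8, 27.6 and 31.3 CPM in the 4 hashtags, and at 300 or more (7, 11, 23 and 8 cells) at 19.7, 206, 223 and 174 CPM. The highest to lowest ratios were 6.75 (1.95 to 29.5) and 11.3 (3.77 to 55.6), and the values of 0252 rest on 4 and 3 UMIs. In the globin-rich cells of 0252, *SLC25A37* was at 355 CPM (266 to 463) and *TFRC* at 282 CPM (204 to 380). *HBZ* was at 1662 CPM there, against 13037, 12593 and 12220 CPM in 0253, 0254 and 0255. The 7 cells of 0252 were therefore low in *ALAS2* and *HBZ*. Whether the iron genes were lower in them too cannot be told from 7 cells.

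*HEMGN* and *TFRC* kept different orders between hashtags at 20 to 299 globin UMIs. *HEMGN* was at 79.9 and 101 CPM in 0252 and 0253 and at 32.2 and 21.9 CPM in 0254 and 0255, and *TFRC* at 82.3 and 98.0 CPM in the first pair and at 168 and 172 CPM in the second. *KLF1* was at 69.5, 44.8, 138 and 160 CPM. In cells with platelet genes and 20 or more globin UMIs (44, 47, 12 and 7 cells), *HEMGN* was at 195, 153, 150 and 182 CPM. The highest to lowest ratio was 1.30 (0.941 to 1.82) and rests on only 12 cells of 0254. Other pairs of hashtags were not compared in those cells.

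**Figure D4:**
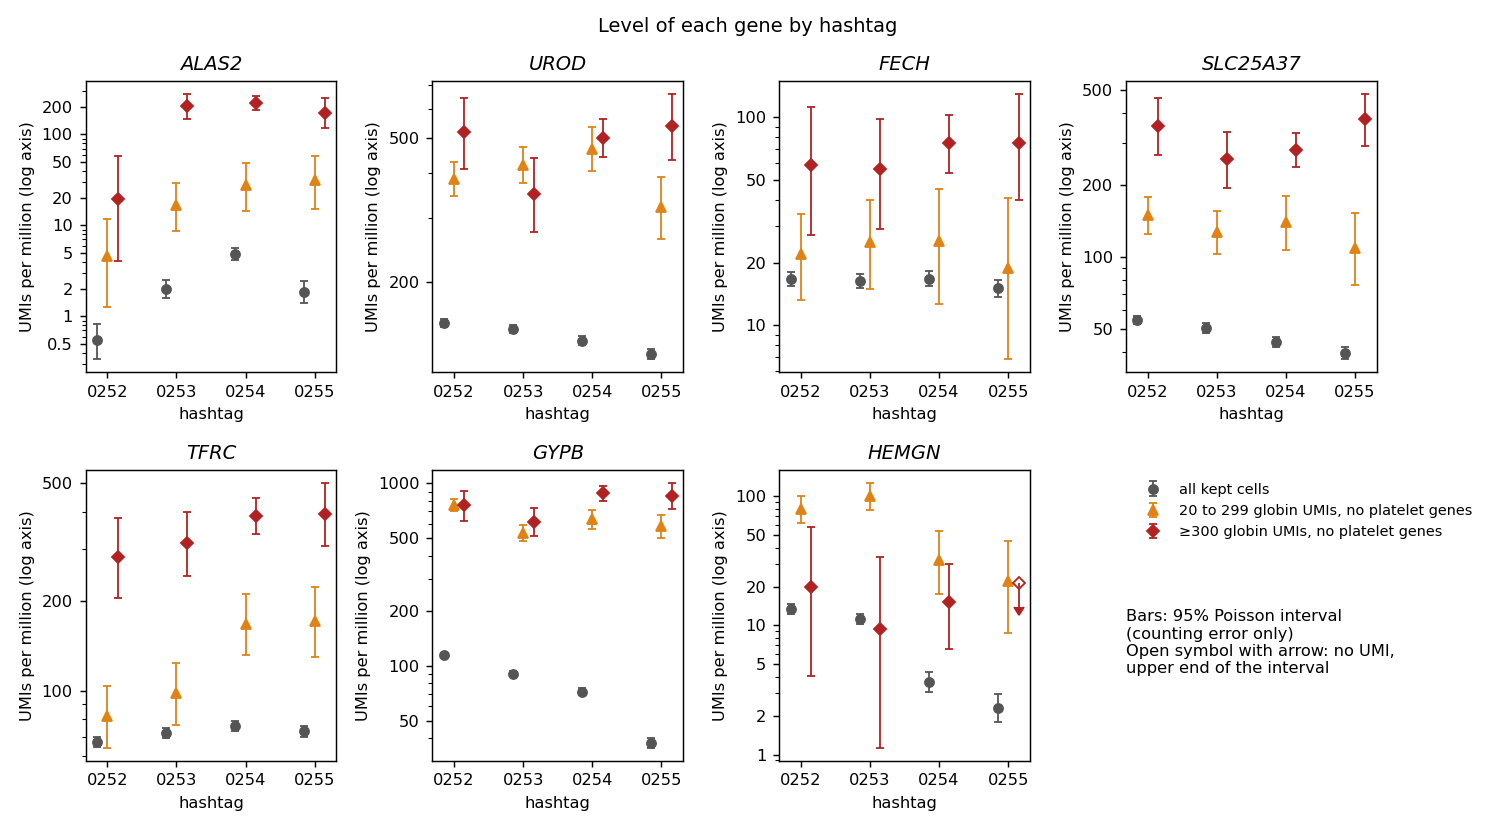
Level of each gene in UMIs per 1000000 UMIs (log axis) by hashtag in all kept cells (circles) and in cells without platelet genes with 20 to 299 (triangles) or 300 or more (diamonds) globin UMIs; bars are 95% Poisson intervals, and an open symbol with an arrow marks the upper end of the interval where no UMI was found. *ALAS2* of 0252 lies lowest in each set, at 0.544, 4.63 and 19.7 CPM, and *HEMGN* of 0254 and 0255 lies below that of 0252 and 0253 in all kept cells.

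The other heme and iron genes lay in both directions. Of 37 other genes of heme synthesis, heme handling and iron, 35 had at least 100 UMIs. Of these, 2 were at least 4 times higher in cells with 100 or more globin UMIs than in cells with 0, against 2.02% of all 13486 genes. In this and the following lists, no gene was left out for having 100 UMIs only through the globin-high cells, as *ALAS2* was. The 2 genes were *BLVRB*, a biliverdin reductase, at 680 against 82.0 CPM, and *TFR2*, the second transferrin receptor, at 34.4 against 4.47 CPM. A ratio of at least 2 was found for 9, against 6.01% of all genes, and of at most 1/2 for 1, against 16.1%. The median log2 ratio of the list was 0.14, against -0.26 over all 13486 genes.

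Of the other enzymes that build heme, *ALAD* was 2.56 times and *PPOX* 2.11 times higher, while *UROS* and *CPOX* had ratios of 1.56 and 1.37. *ALAS1*, the form of ALAS2 that other tissues use, was lower, at 28.3 against 49.7 CPM, a ratio of 0.570 (0.462 to 0.696), and in cells without platelet genes it stayed between 6.90 and 30.1 CPM over the narrow globin bins. *SLC25A28*, the sister of *SLC25A37*, had a ratio of 0.818 (0.617 to 1.06). For both pairs the red cell form was thus higher with globin and the general form was not. *HMOX1*, which breaks heme down, was at 4.91 against 18.4 CPM, a ratio of 0.267 (0.155 to 0.429), and *HEBP1*, which binds heme, had 0.537. The cells picked by complement genes had *HMOX1* at 170 CPM and held 41.3% of its UMIs, and the globin-negative, *GYPB*-high cells had it at 3.61 CPM. The iron exporter *SLC40A1*, the mitochondrial protein gene *FAM210B* and the ferritin chains *FTH1* and *FTL* had ratios of 3.05, 2.85, 1.37 and 0.873.

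*TFR2* shared the pattern of *ALAS2* and *TFRC* across cell kinds, with 44.1 CPM in globin-bearing cells without platelet genes and 6.79 CPM in those with them. *ALAD* was at 31.8 and 10.2 CPM, while *SLC40A1*, at 57.9 and 58.2 CPM, was alike in both.

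Of 35 other membrane and skeleton genes, 23 had at least 100 UMIs. With 100 or more globin UMIs, 6 were at least 4 times and 11 at least 2 times higher, against 2.02% and 6.01% of all genes. The skeleton genes *ANK1* and *DMTN* had ratios of 60.5 and 39.8, the blood group gene *KEL* 21.1, *RHAG*, the Rh-associated glycoprotein, 5.01, and *STOM*, the membrane protein stomatin, 4.97, and *GYPE* had 4.54 (4.13 to 4.98). At most 1/2, against 16.1% of all genes, were *CD36* with 0.133, *CD44* with 0.147 and *SPTAN1*, a spectrin of other tissues, with 0.450. *AQP1* was not analysed here.

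The anion exchanger *SLC4A1* had 10 UMIs in all kept cells and 0 in cells with 20 or more globin UMIs. *AHSP*, the chaperone of alpha globin, had 17 UMIs, all in cells with 100 or more globin UMIs and without platelet genes. Both were named after their values were seen. *GYPE* was at 170 CPM without and 137 CPM with platelet genes in the globin-bearing cells.

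Of 20 erythroid factors and other red cell genes, 19 had at least 100 UMIs, and 10 were at least 4 times higher, against 2.02% of all genes. They were led by carbonic anhydrase *CA1* (32.0), *KLF1* (13.4), *BLVRB* (8.30, also in the heme list), *CA2* (7.39) and *GATA1* (6.39). At most 1/2 were 3, against 16.1% of all genes, namely *BCL11A*, a repressor of the fetal globins, with 0.286, *MYB* with 0.461 and *IKZF1* with 0.467. The median log2 ratio was 2.05 in this list and 0.80 in the membrane list. The 16 cell cycle genes, summed, were at 2339 CPM without globin and 2048 CPM with 100 or more globin UMIs, and at 2566 and 1538 CPM in globin-bearing cells without and with platelet genes.

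**Figure D5:**
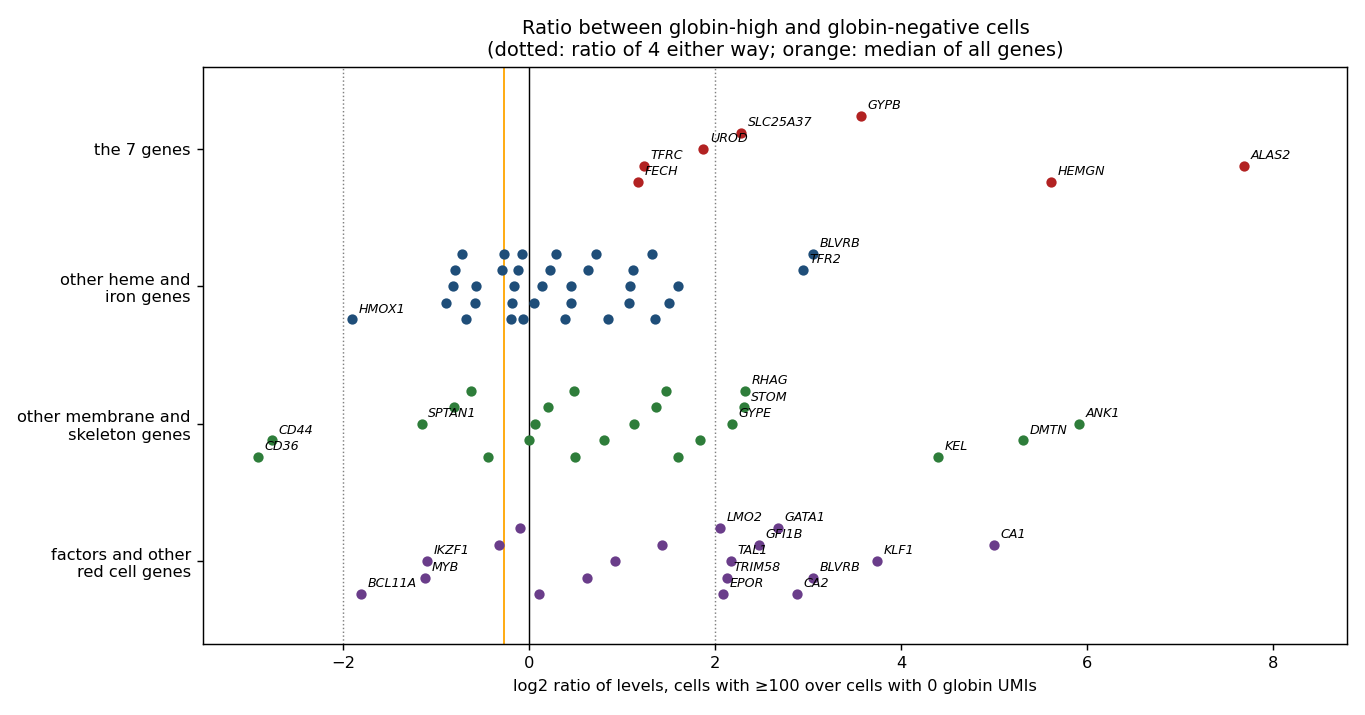
Log2 ratio of the level in cells with 100 or more globin UMIs to that in cells with 0, for the 7 genes and for the genes with at least 100 UMIs of the 3 lists; each point is a gene, vertical spread within a row has no meaning, dotted lines mark a ratio of 4 either way and the orange line the median of all genes at -0.26. The 7 genes all lie to the right of 0, from 2.26 times for *FECH* to 206 times for *ALAS2*, and most heme and iron genes lie near 0.

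The genes most like each of the 7 over the 7550 cells overlapped for some of the 7 and not for others. *ALAS2* was most like *HBZ* (Pearson r = 0.69), *HBA1* (0.58), *HBA2* (0.52), *HBG1* (0.51) and *HBG2* (0.50), all globin genes. *HEMGN* was most like *THBS1* (0.65), *GP9* (0.65), *TUBB1* (0.62), *ITGB3* (0.61) and *LTBP1* (0.61), among them genes known from platelets. *GYPB* was most like *MYL4* (0.74), *GYPE* (0.71), *CCDC173* (0.70), *CMTM5* (0.70) and *PRKAR2B* (0.66).

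*UROD* shared 3 of its nearest genes with *GYPB*, namely *CMTM5* (0.43), *MYL4* (0.42) and *PRKAR2B* (0.40), followed by *GYPB* (0.40) and *GP9* (0.39). *SLC25A37* was nearest to *HBG2* (0.30), *HBG1* (0.30), *GYPB* (0.26), *HBA1* (0.26) and *HBD* (0.26). *TFRC*, with *KLF1* (0.20), *KCNH2* (0.19), *HDC* (0.19), *NCL* (0.18) and *ALAS2* (0.18), and *FECH*, with *HBZ* (0.12), *ALAS2* (0.12), *KLF1* (0.11) and *ANK1* (0.11), had weak correlations only, which in counts this sparse are no finding. These correlations are across cells of 1 library that share depth and free RNA, and carry no test.

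Outside the globin-bearing cells the 7 genes were read at unlike levels. In the azurophil granule cells *GYPB* was present in 7.49% and *HEMGN* in 1.81%. In 385 cells picked by complement genes (*C1QA*, *C1QB*, *C1QC*, median depth 12860 UMIs) the shares were 3.38% and 0.779%. The source of these UMIs was not tested. Of cells without globin 17.1% held *GYPB*, above the shares in both kinds of cell. *HEMGN* was held by 2.37%, also above both shares but within the interval of the azurophil granule cells (0.992 to 3.02%). *TFRC* was at 112 CPM in 113 cells picked by eosinophil granule genes (*EPX*, *PRG2*, *CLC*), more than in cells with 20 to 99 globin UMIs. *UROD* was at 87.5 CPM in the complement cells and 148 CPM in 676 cells picked by *CD34* and *SPINK2*. *FECH*, at 12.9 to 22.1 CPM, and *SLC25A37*, at 35.0 to 79.4 CPM, were read in each of the 5 kinds of cell with fewer than 20 globin UMIs that are named here.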

How the data were processed

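Droplet-based single-cell RNA sequencing was performed on nonadherent cells from day 5 of EHT as 1 RNA library and 1 hashtag library. Cell Ranger 6.0.1 and the build hg19 are named by the authors. The deposited matrix gives raw UMI counts per gene and per hashtag antibody for 10836 barcodes, which are in both libraries, and each barcode has 1 call (a hashtag, doublet or negative). The calls rest on the antibody counts, which the authors used to remove empty droplets and doublets; the thresholds are not given in the sources used here.

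Barcodes with 1 hashtag call (8488) were filtered at the limits of the study (36000 UMIs, 6000 genes, 18% mitochondrial UMIs), and 41 of those removed had 100 or more globin UMIs. The 7550 kept cells hold 142110950 UMIs. Levels are summed UMIs per 1000000 with exact Poisson 95% intervals. Ratios have exact conditional binomial intervals and shares Clopper-Pearson ones. No test was run, since there is 1 library. For comparison of shares, cells were thinned to 5000 UMIs, which left out 68. A gene was counted in a comparison if it had at least 100 UMIs. For splits chosen after the values were seen, these UMIs had to lie in both groups together. Where a group had 0 UMIs, 3 counts gave the upper limit.

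Genes named are the 7 genes, *ALAS1*, *GYPE* and *SLC25A28*, the globins of the bins, the 5 highest and 3 lowest ratios of each list, and the 5 genes most correlated with each of the 7. Other enzymes of heme synthesis, and *AHSP*, *SLC4A1*, the ferritin chains and marker genes, are named as members of their lists after their values were seen. Some genes of the lists are not reported here. The 7 genes and the lists were chosen with earlier results of these data known. Alternatives tried were other totals, limits, bins, filters on low counts and doublet removal (Scrublet in scanpy 1.11.5 at an expected rate of 6%), means over cells, thinning, and each hashtag left out. The splits by platelet genes, by *GYPB* and at 300 globin UMIs, and the narrower bins, were chosen after the data were seen. Ratio and interval steps were tested on simulated data. Promoter sequences are RefSeq's, and gene positions come from a GRCh37 annotation. Python 3.11.15, numpy 2.4.6, scipy 1.17.1, pandas 2.3.3 and matplotlib 3.10.9 were used.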

Additional observations from a re-analysis of the deposited data

Results flagged for a closer look

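Barcodes called negative for all hashtags entered no comparison, yet 9 of them, within the limits on UMIs, genes and mitochondrial share, held 100 or more globin UMIs, and 6 of the 7 genes were above the limit that 3 counts set there (18.4 CPM). *ALAS2* was at 264 CPM (191 to 356), from 43 UMIs. *UROD* was at 356 CPM, *FECH* at 55.3 CPM, *SLC25A37* at 209 CPM, *TFRC* at 209 CPM and *GYPB* at 571 CPM. *HEMGN*, at 12.3 CPM from 2 UMIs, was below that limit. In the 589 barcodes called negative with 0 globin UMIs, *ALAS2* was at 0.333 CPM and *GYPB* at 59.8 CPM. The 9 barcodes thus showed high *ALAS2* with little *HEMGN*, as the globin-rich cells without platelet genes did, and they belong to no hashtag.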

How the results depend on the processing

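No paired analysis was possible because the groups in the labels are the RNA and the hashtag library of the same cells and no test was run. Of 140 ratios of the 7 genes recomputed under the alternatives, 97 stayed within the interval first given and 43 moved beyond it. Of those between globin bins, 0 changed direction. The others are of the highest to the lowest hashtag and cannot change direction by the way they are built. Whether the same hashtags stayed highest and lowest is not covered by these counts. With a mitochondrial limit of 10%, which kept 736 cells and 5 with 100 or more globin UMIs, the *ALAS2* ratio between the outer globin bins was 45.3 in place of 206, that of *GYPB* 29.3 in place of 11.9, and the *HEMGN* ratio between hashtags 19.4 in place of 5.82. Thinning put *ALAS2* at 322. Without limits on UMIs or genes, *SLC25A37* was at 3.94, below 4. Leaving out a hashtag moved the ratio between the bins to 141 to 272 for *ALAS2*, 1.76 to 2.66 for *FECH*, 1.80 to 2.88 for *TFRC*, 10.1 to 15.5 for *GYPB* and 43.7 to 60.0 for *HEMGN*; the lowest *ALAS2*, *FECH*, *TFRC* and *GYPB* values were those without 0254. Without cells with platelet genes, the *HEMGN* ratio between hashtags was 10.6.

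Genes at least 4 times higher at 100 or more than at 0 globin UMIs numbered 412 with a minimum of 30 UMIs, 1100 with a minimum of 1 and 156 without cells with platelet genes, in place of 273. Genes at least 4 times lower numbered 351 without limits on UMIs or genes, 1888 at the mitochondrial limit of 10%, 1787 with a minimum of 30 UMIs and 7530 with a minimum of 1, in place of 882. Genes at least 1.5 times apart between hashtags numbered 4178 and 11517 with these lower minimums, in place of 2288, and 2 other heme and iron genes, in place of 1, were at least 2 times lower with a minimum of 30. Lower minimums admit genes of few UMIs; the cause of the other moves was not tested. The other 74 of 84 counts stayed within 1.5 times. The 322 UMIs of *ALAS2* came from 127 cells.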
